A study of Mus musculus with 2 samples.

Results

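The 35 genes described here serve the folding of proteins in the endoplasmic reticulum (ER) and their export from it, and were taken by symbol. Each of the 35 matched 1 identifier among the 31053 genes of the count tables. They were counted by single-cell RNA sequencing in the cervix of ovariectomised female C57BL6/129 mice, which had surgery at 7 to 8 weeks of age and then 2 weeks of recovery. Ovariectomy takes away the main source of ovarian hormones, and both groups carry it. The control group was left untreated for the 15 days of the experiment. The progesterone group had estradiol (E2) injected under the skin in corn oil, 100 µg per day for 2 days, and then carried a 25 mg pellet with a release time of 21 days, estimated to give 1 mg per day. Cervices were cut off below the transition zone, cleared of vaginal tissue and dissociated with a protease in the cold. Each group is 1 library from 9 pooled mice, and the groups differ in estradiol, injection and pellet as well as in progesterone. There are no replicates, so no test between groups was made. Values in square brackets are 95% intervals that cover counting error only.

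Secreted and membrane proteins enter the ER through the Sec61 channel, lose their signal peptide to signal peptidase, and fold there with chaperones and disulfide isomerases. When unfolded protein builds up, the sensors IRE1, ATF6 and PERK start the unfolded protein response, whose transcription factors raise the chaperones, the channel and the export machinery. Mucous epithelia make very large, disulfide-linked mucins, of which Muc5b is the main gel former of cervical mucus, and they are known for a well-developed ER and for IRE1β (gene Ern2), a form of the sensor restricted to mucin-making epithelia.

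The deposited tables hold counts of unique molecular identifiers (UMIs), with 21658684 UMIs in 5368 barcodes of the control library and 44811069 in 10853 of the progesterone library. The 3′ libraries were made with a 10x Genomics kit. After filters 4579 and 8541 cells were analysed, and 12 barcodes occurred in both. Cells were clustered without the members and without Muc5b, and clusters were named from fixed markers, so each name is to be read as mucous luminal-like, squamous-like and so on. Clusters with luminal keratins (Krt8, Krt18) and a raised mean of the mucous markers were named mucous luminal. Their cells numbered 252 in the control and 1713 in the progesterone library, but different clusters held most of them. Cluster 12, led by Psca, Tff1 and Agr2, held 243 of the control cells; a cluster mostly of 1 library may be that library rather than a kind of cell. Clusters 1 (Agr2, Tff1, Muc5b) and 21 (Clca1, Tff1, Olfm4) held 722 and 913 of the progesterone cells and 4 and 5 of the control cells.

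Of the 11 mucous markers, 7 stood at 50 counts per 1000000 UMIs (CPM) or more in control and 8 in progesterone mucous luminal cells. Muc5b itself was at 2548 and 8298 CPM, with a UMI in 24.2% and 91.0% of the cells. Tff1 had a UMI in 24.6% and 80.7% and Clca1 in 18.3% and 71.0%, so each of these 3 markers was undetected in most cells of the control class, while 83.7% had Krt8, 60.3% Psca and 82.9% the basal keratin Krt5. The control class also held squamous transcripts, with a summed level of the 8 basal squamous markers of 8204 CPM against 1221 in the progesterone class. The 8 plasma cell markers, which mark another kind of secretory cell, summed to 146 CPM in the control and 156 CPM in the progesterone class. Jchain had no UMI in either class. A Muc5b UMI occurred in 20.4% of immune cells of the progesterone library and in 0.522% of those of the control library. All analysed cells held 76112 Muc5b UMIs in the progesterone and 2411 in the control library. Krt14, a squamous keratin, had a UMI in 47.9% of progesterone and 46.1% of control immune cells, at 2946 and 1259 CPM. Other keratins were found in a larger share of progesterone than of control immune cells. These shares were 37.9% and 22.3% for Krt5, 21.2% and 2.26% for Krt18, 12.1% and 4.70% for Krt13, and 8.08% and 1.04% for Krt8. Epithelial transcripts in immune cells were thus not limited to the progesterone library, though the levels of these keratins were higher there. The part of free RNA and of droplets with several cells in these shares was not tested.

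Mucous luminal cells carried the members at a higher level than squamous cells in both libraries. Summed over the 35 members, it was 8938 [8732 to 9147] CPM in control and 10018 [9951 to 10086] CPM in progesterone mucous luminal cells. Squamous cells stood at 4327 [4286 to 4368] and 3421 [3398 to 3444] CPM. Other luminal cells (cluster 8, led by Sprr2d and Psca, with little Muc5b) lay between them at 6903 [6785 to 7022] and 7472 [7209 to 7743] CPM. The sums had the same order in both libraries, though other luminal cells numbered 270 in the control and only 32 in the progesterone library. The median cell did not, since members took 0.595% of the UMIs of the median mucous luminal and 0.659% of the median other luminal cell in the control, against 0.835% and 0.706% in the progesterone library. The control sum of mucous luminal cells was raised by the 61 of 252 cells with a Muc5b UMI, which stood at 15090.4 CPM with Muc5b left out of the totals, against 6279.9 CPM in the other 191.

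Among immune cells the level depended on the cell type. Neutrophils were at 4244 [3974 to 4526] and 3244 [3070.1 to 3426] CPM. Macrophages and dendritic cells were at 7636 [7336 to 7945] in the control and 4096 [3976 to 4219.5] CPM in the progesterone library. A small lymphoid cluster, with markers of plasma, T and natural killer (NK) cells, reached 9544 [8765 to 10372] CPM in 45 control and 8702 [8009.5 to 9438] CPM in 34 progesterone cells. In the progesterone cells of it a few cells carried the sum, as the median cell had 0.456% and the upper quartile 0.837% of its UMIs in members. The control interval of that cluster overlaps the interval of control mucous luminal cells. Its makeup differed between the libraries, since Igkc, an antibody light chain, was at 207 CPM in the control and 14209 CPM in the progesterone cells of it, with an Igkc UMI in 23.5% of the 34 cells.

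**Figure D1:**
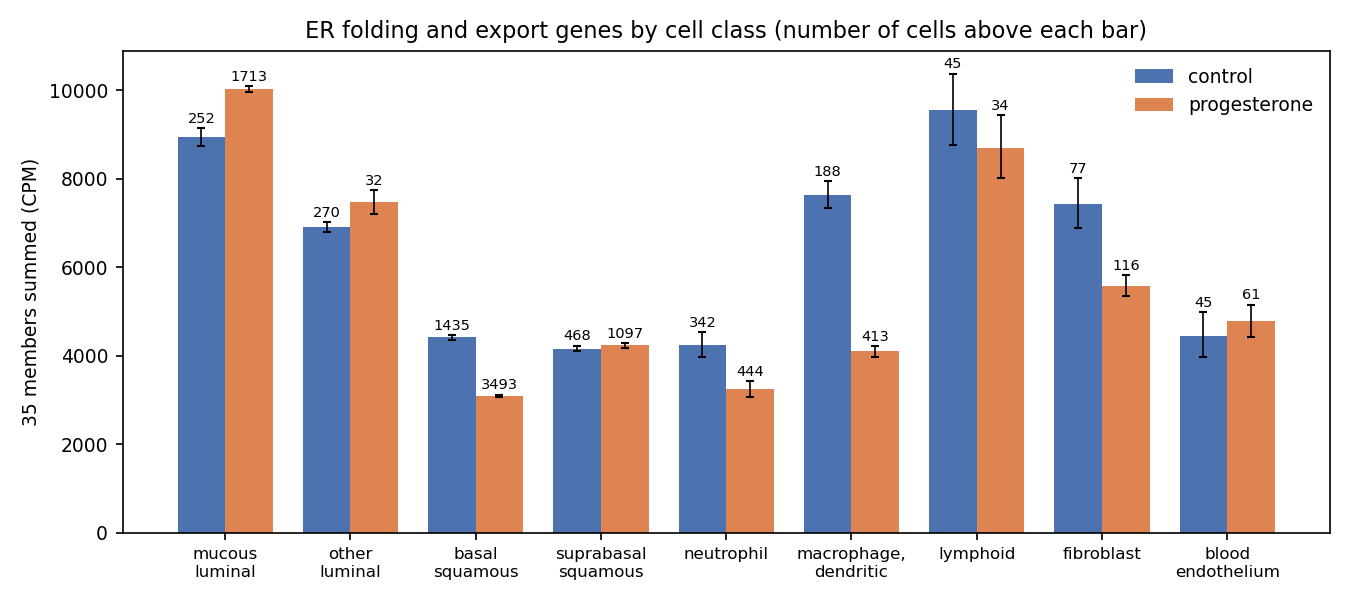
Summed level of the 35 members, in CPM, by cell class for the control (blue) and progesterone (orange) library; bars are sums over all cells of a class, error bars are 95% Poisson intervals for counting error, and the numbers above the bars count cells. Mucous luminal cells stand at 8938 and 10018 CPM, above the squamous classes in both libraries, and macrophages and dendritic cells differ most between the libraries among the immune classes shown.

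In the progesterone library the summed level was 2.93-fold [2.90 to 2.96] higher in mucous luminal than in squamous cells. All 35 members had the higher level in mucous luminal cells, and 31 of the 35 were at least 2-fold higher, where 17.9% of 12813 genes tested were. Here and below a gene counts as tested with at least 20 UMIs in the 2 groups together. The median log2 ratio was 1.46 over the members and 0.17 over all genes tested. In the control library the summed level was 2.07-fold [2.01 to 2.12] higher, 19 of 35 members were at least 2-fold higher against 19.3% of 10902 genes, and again all 35 lay above 1. Median log2 ratios there were 1.01 for the members and 0.18 for all genes. The control count was 8 without mitochondrial, ribosomal and the 20 most abundant genes in the total, which moved every gene by -0.24 (log2), and 11 with cells classed by keratins alone. A ratio of CPM shows a share of RNA, so more of a transcript and less of all other RNA in a cell cannot be told apart.

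The chaperones are the largest role among the members, with 9 genes. Hspa5, the ER form of the Hsp70 chaperones (BiP), was at 652 [598 to 711] CPM in control and 573 [557 to 589.6] CPM in progesterone mucous luminal cells, and at 354 and 194 CPM in squamous cells. Its ratio was 1.84-fold [1.68 to 2.02] in the control and 2.95-fold [2.84 to 3.07] in the progesterone library. The larger ratio goes with a lower squamous level in the progesterone library, since the mucous luminal level was no higher there. Hsp90b1, the ER form of Hsp90, showed the same pattern, with 746 and 709 CPM in mucous luminal and 399.97 and 282 CPM in squamous cells.

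Calreticulin (Calr) and calnexin (Canx) hold sugar-bearing proteins until they are folded, yet they differed. Calr was at 963 and 815 CPM in mucous luminal cells and at 436 and 229 CPM in squamous cells, 3.56-fold [3.43 to 3.68] higher in the progesterone library. Canx was at 253 and 268 against 201 and 174 CPM and, at 1.55-fold [1.47 to 1.63], was the 1 chaperone of the 9 under 2-fold. The 2 intervals do not overlap, so the membrane-bound lectin chaperone differed less between the cell types than the soluble one.

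Sdf2l1, a partner of the co-chaperone Dnajb11, had the largest chaperone ratio, 6.23-fold [5.003 to 7.78], from 31.1 against 4.9997 CPM. In the control library its levels were 13.7 and 8.29 CPM, a ratio of 1.65-fold [0.794 to 3.11] whose interval includes 1. The J-domain co-chaperones of BiP had progesterone ratios of 2.92-fold (Dnajb9), 2.73-fold (Dnajb11) and 3.55-fold (Dnajc3). Hyou1, which recharges BiP with ATP, had 2.59-fold [2.18 to 3.09] and 2.19-fold [1.33 to 3.47] in the progesterone and control library.

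Because most members stood higher together, their promoters were searched for letters known from ER stress genes. The window runs from 250 bases before to 50 bases after the start of each gene in RefSeq (GRCm38.p6), and both strands were searched. Windows were found for 27 of the 35 members. The ER stress response element, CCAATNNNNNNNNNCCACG, which ATF6 binds together with the general factor NF-Y, occurred in 7 of these 27 members and in 37 of 27025 genes in all (0.137%). Its second form, ATTGGNCCACG, occurred in 2 members, Dnajb11 and Herpud1, and in 0.0444% of genes. The XBP1 and ATF6 core TGACGTG was found in 1 member, Hspa5, and in 2.22% of genes, and TTGCATCA, bound by ATF4 with C/EBP factors, in 1 member, Herpud1, and in 1.03%. No 2 kinds of motif overlapped in a member. The sequences of the 7 members with the first form are given 5′ to 3′ on the strand of the gene, from upstream of its start, with the fixed letters of each match in capitals (CCAAT and CCACG, or CGTGG and ATTGG where the match lies on the opposite strand).
Hspa5: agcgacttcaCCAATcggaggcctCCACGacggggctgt
Hsp90b1: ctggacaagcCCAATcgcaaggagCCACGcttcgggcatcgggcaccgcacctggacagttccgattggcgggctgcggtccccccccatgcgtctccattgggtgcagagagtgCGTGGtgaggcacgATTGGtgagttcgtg
Pdia6: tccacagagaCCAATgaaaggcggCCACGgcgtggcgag
Calr: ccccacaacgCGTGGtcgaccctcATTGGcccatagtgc
Canx: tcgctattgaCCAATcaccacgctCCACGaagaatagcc
Dnajc3: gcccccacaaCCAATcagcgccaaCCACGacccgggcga
Creld2: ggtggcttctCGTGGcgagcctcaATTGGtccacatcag
They lie at chr2:34772015-34772053 (plus strand) for Hspa5, chr10:86705523-86705666 (minus strand) for Hsp90b1, chr12:17266481-17266519 (plus strand) for Pdia6, chr8:84847065-84847103 (minus strand) for Calr, chr11:50325790-50325828 (minus strand) for Canx, chr14:118937817-118937855 (plus strand) for Dnajc3 and chr15:88819510-88819548 (plus strand) for Creld2. Hsp90b1 held the element in 2 places, on opposite strands. The 7 genes had progesterone ratios of mucous luminal over squamous cells from 1.55-fold (Canx) to 3.56-fold (Calr), with a median of 2.95. The other 20 members with a window, among them Dnajb11 and Herpud1 with the second form, ran from 1.32-fold (Ddit3) to 6.23-fold (Sdf2l1), with a median of 2.72. Of the 7, 5 are chaperones, and the ratios of the 7 lay within the range of the members without the first form. A match describes letters in a window and does not show binding.

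All 4 disulfide isomerases, which form and reshuffle the disulfide bonds that mucins depend on, were at least 2-fold higher in progesterone mucous luminal cells. P4hb, the classical isomerase (PDI), was at 324 and 355 CPM in mucous luminal and 129 and 103 CPM in squamous cells, 3.46-fold [3.28 to 3.65] higher in the progesterone library. Pdia3, which works with calreticulin and calnexin, was at 621 and 725 against 296 and 212 CPM, 3.42-fold [3.29 to 3.55]. Pdia4 and Pdia6 had progesterone ratios of 2.72- and 3.17-fold. Summed, the isomerases were 3.31-fold [3.23 to 3.39] higher in the progesterone and 2.14-fold [2.01 to 2.29] higher in the control library.

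The sensors and transcription factors of the stress response were the least uniform role. Ern2 was at 72.2 [54.8 to 93.3] CPM in control and 139 [131 to 147] CPM in progesterone mucous luminal cells. In squamous cells it was at 0.3 [0.0618 to 0.875] CPM, from 3 UMIs, and 7.35 [6.31 to 8.52] CPM, and in other luminal cells at 1.06 CPM with 2 UMIs in the control and no UMI in the progesterone library. Its ratio to squamous cells was 241-fold [78.5 to 1203] in the control and 18.9-fold [16.2 to 22.3] in the progesterone library, the highest of all members in both. With each cell thinned to 2000 UMIs, an Ern2 UMI was left in 12.3% [7.59 to 18.6] of mucous luminal cells in the control library and in 25.0% [22.8 to 27.2] in the progesterone library. In squamous cells these shares were 0% [0 to 0.259] and 1.22% [0.91 to 1.59]. Muc5b had a UMI in 23.3% of progesterone squamous cells. The 267 of them with the highest Muc5b share had 3042 CPM of Muc5b and 2282 CPM of Krt8 and Krt18. Those with no Muc5b UMI had 706 CPM of these keratins. The part of free RNA and of droplets with 2 cells in the higher squamous share of Ern2 was not tested.

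Ern1, the IRE1 form that most tissues have, was far more even, at 13.7 and 41.5 CPM in mucous luminal and 8.29 and 20.5 CPM in squamous cells, 2.03-fold [1.76 to 2.33] in the progesterone library. Xbp1, the transcription factor that IRE1 activates by splicing its messenger RNA, was at 67.2 and 149 against 29.2 and 34.0 CPM, 4.38-fold [4.00 to 4.78]. Its control ratio of 2.31-fold [1.69 to 3.09] turned to a log2 value of -0.34 with cells classed by keratins alone. Counts from the 3′ end do not show whether the transcript was spliced. Atf6, a sensor that is itself a transcription factor, had ratios of 2.995-fold [2.03 to 4.31] in the control and 2.21-fold [1.92 to 2.53] in the progesterone library. The 2 factors downstream of PERK differed least. Atf4 was at 93.5 against 62.1 CPM, 1.505-fold [1.38 to 1.64], and Ddit3 (CHOP), which is linked to cell death under long ER stress, at 14.5 against 11.03 CPM, 1.32-fold [1.05 to 1.63]. Both stayed under 2-fold in both libraries.

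Both secreted stress factors were at least 2-fold higher in mucous luminal cells of the progesterone library. Manf, which binds BiP and can be secreted under stress, was at 207 and 294 CPM in mucous luminal and 94.7 and 74.6 CPM in squamous cells, 3.94-fold [3.70 to 4.18] in the progesterone library. Creld2, secreted under ER stress, was at 37.3 and 36.3 against 24.7 and 13.6 CPM, 2.68-fold [2.28 to 3.14]. Herpud1 and Selenok serve the removal of misfolded proteins. Their progesterone ratios were 2.46- and 2.11-fold, and Herpud1 was higher still in other luminal cells, at 213 and 340.4 CPM against 66.0 and 126 in mucous luminal cells. Its highest level among the progesterone clusters with at least 50 cells was in cluster 1, at 171 CPM.

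Of the 7 translocon genes, 6 were at least 2-fold higher in mucous luminal than in squamous cells of the progesterone library, from 2.11-fold for Ssr3 to 3.03-fold for Ssr4, and Ssr1 was at 1.94-fold [1.79 to 2.11]. Sec61a1 forms the channel, Sec61b and Sec61g are its small subunits, and the Ssr genes encode the translocon-associated complex beside it. Sec61b was at 762 and 813 CPM in mucous luminal and 348 and 287 CPM in squamous cells. Ssr4 was at 757 and 1049 against 442 and 346 CPM. Summed, the translocon was 2.72-fold [2.68 to 2.77] higher in the progesterone and 1.89-fold [1.80 to 1.98] in the control library.

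Signal peptidase held the gene with the largest ratio after Ern2. Sec11c, 1 of the 2 alternative catalytic subunits, was at 281 [246 to 320.5] and 351 [338 to 364] CPM in mucous luminal cells and at 42.9 and 36.1 CPM in squamous cells. Its ratios were 6.55-fold [5.55 to 7.72] in the control and 9.73-fold [9.02 to 10.5] in the progesterone library. The other catalytic subunit, Sec11a, which is on the list of further translocation genes, was 1.16-fold [1.07 to 1.25] and 1.19-fold [0.954 to 1.46] in the progesterone and control library. The accessory subunits Spcs1 and Spcs2 had progesterone ratios of 2.03-fold [1.90 to 2.16] and 2.78-fold [2.66 to 2.91]. The catalytic subunits therefore had very different ratios between the cell types.

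Export and retrieval were represented by Tmed3, a cargo adaptor of the early secretory pathway, and Kdelr2, a receptor that returns escaped chaperones to the ER. Tmed3 was at 269 and 394 CPM in mucous luminal and 90.9 and 109.8 CPM in squamous cells, 3.59-fold [3.41 to 3.78] in the progesterone library. Kdelr2 was at 72.2 and 132 against 44.1 and 47.9 CPM, 1.64-fold [1.22 to 2.15] in the control and 2.75-fold [2.53 to 2.99] in the progesterone library. Here the difference between the libraries lay in the mucous luminal cells, while the squamous levels were close to each other.

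**Figure D2:**
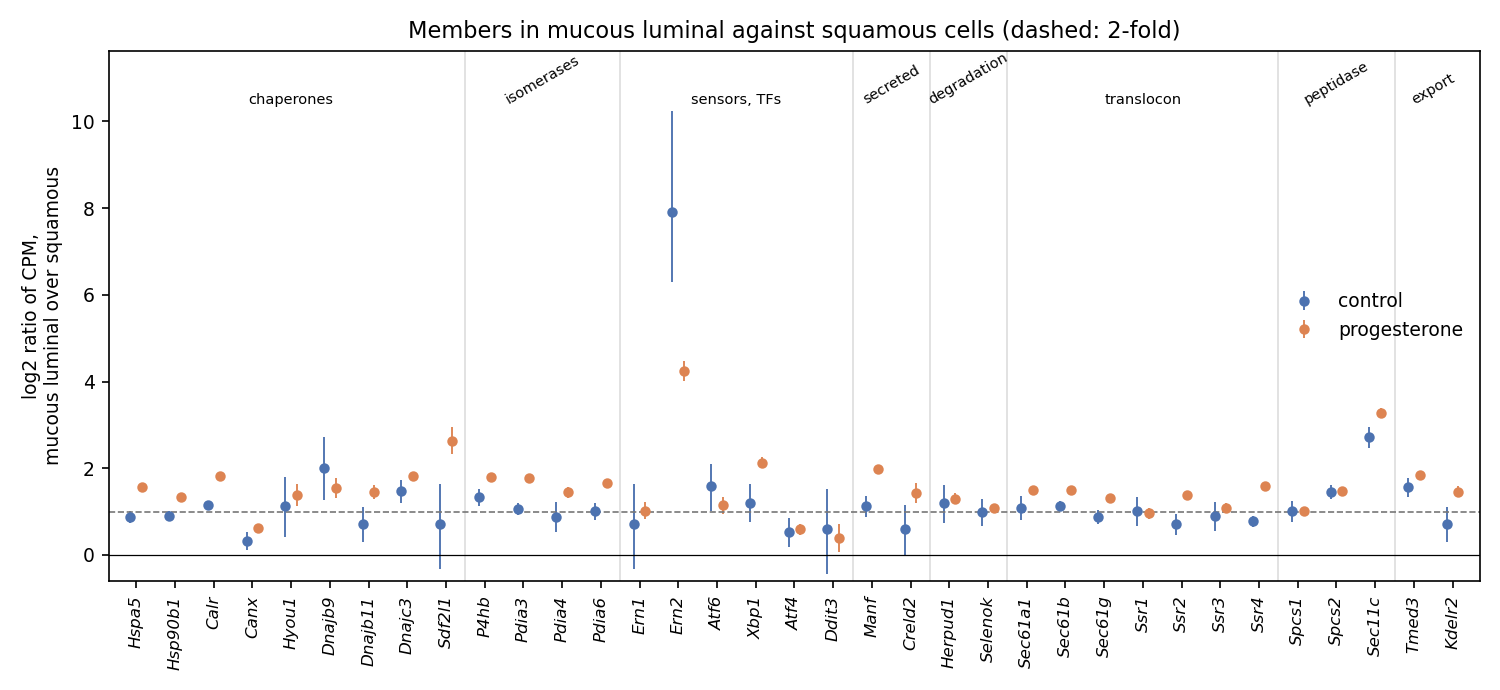
Log2 ratio of CPM, mucous luminal over squamous cells, for each member by role, in the control (blue) and progesterone (orange) library; bars are 95% counting intervals and the dashed line marks 2-fold. All 35 members lie above 0 in both libraries, Ern2 is the highest and Sec11c the next in the progesterone library, and Canx, Atf4 and Ddit3 lie under the dashed line in both.

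Further genes of the pathway were counted from fixed lists. In progesterone mucous luminal against squamous cells, 9 of 12 tested oligosaccharyltransferase genes, which add sugars to proteins entering the ER, were at least 2-fold higher, led by Rpn2 (3.06-fold [2.90 to 3.23]) and Ddost. So were 10 of 13 further genes of COPI retrieval (Kdelr3 at 25.7-fold [16.7 to 41.5]), 11 of 18 of ER degradation (Sel1l at 6.22-fold [5.74 to 6.75]) and 15 of 25 of COPII export (Sec24d at 5.16-fold [4.10 to 6.52]). The background share was the 17.9% given above. Of the oxidative folding list 8 of 14 were, with Agr2, an isomerase of mucous cells, at 35.8-fold [34.6 to 37.2], and of the other translocation genes 5 of 15, a share closer to the background. Among transcription factors known from secretory cells 5 of 7 were, with Creb3l1 at 29.7-fold [23.6 to 37.8] and Bhlha15 at 20.4-fold [10.5 to 44.3]. Of the PERK branch 3 of 11 were, namely Nupr1 (54.9-fold [48.4 to 62.5]), Eif2ak3, which encodes PERK itself (5.41-fold [4.23 to 6.95]), and Atf3, which is also on the list of dissociation genes.

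Chaperones outside the ER had a lower sum in mucous luminal than in squamous cells. None of the 22 cytosolic and mitochondrial chaperones tested was at least 2-fold higher in progesterone mucous luminal cells and 3 were at least 2-fold lower, among them Hspa1b and Hspb1, where 12.3% of all genes tested were at least 2-fold lower. Their sum was at 5763 CPM in mucous luminal and 9035 CPM in squamous cells of the progesterone library, and at 9026 and 14164 CPM in the control library. The higher level of the ER genes in mucous luminal cells was thus not shared by chaperones at large.

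Against immune cells the comparison depended on the library and on the immune cell type. In the progesterone library the summed level was 2.46-fold [2.40 to 2.52] higher in mucous luminal cells, with 24 of 35 members at least 2-fold higher (21.9% of 11634 genes tested) and 1, Ddit3, at least 2-fold lower (14.3% of genes). Median log2 ratios were 1.35 over the members and 0.25 over all genes. In the control library it was 1.36-fold [1.31 to 1.41] higher, with 6 of 35 at least 2-fold higher (24.4% of 7188 genes) and Xbp1 and Ddit3 at least 2-fold lower (21.2%). Medians were 0.42 and 0.17. The control share of 6 in 35 lies under its background, so the members as a set did not stand out there. With cells classed by keratins alone the progesterone log2 ratio was 0.61 with 11 members at least 2-fold higher, and the control count ran from 1 to 14 over the settings at the same fold. Immune cells were shallow, with medians of 669 and 913 UMIs against 2417 and 4850 in mucous luminal cells. Against macrophages and dendritic cells alone, a comparison chosen after seeing the data, the log2 ratio of the sums was 0.23 in the control and 1.29 in the progesterone library.

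By role, the control mucous luminal cells stood highest over immune cells in signal peptidase, 2.37-fold [2.05 to 2.74], export and retrieval, 1.93-fold [1.54 to 2.45], and the translocon, 1.64-fold [1.52 to 1.77]. Chaperones were at 1.23-fold [1.15 to 1.31], isomerases at 1.32-fold [1.19 to 1.46] and secreted factors at 1.30-fold [1.02 to 1.65], while sensors and transcription factors were at 0.562-fold [0.476 to 0.663] and the degradation genes at 0.746-fold [0.594 to 0.938]. In the progesterone library export and retrieval stood highest, 3.53-fold [3.09 to 4.04], before isomerases at 3.11-fold [2.89 to 3.35], signal peptidase at 2.81-fold [2.57 to 3.07], the translocon at 2.71-fold [2.58 to 2.85] and secreted factors at 2.62-fold [2.27 to 3.05]. Chaperones followed at 2.17-fold [2.07 to 2.27], sensors and transcription factors at 1.503-fold [1.37 to 1.65] and degradation at 1.43-fold [1.27 to 1.60]. Sensors and transcription factors thus stood on opposite sides of immune cells in the 2 libraries, while signal peptidase and the translocon were higher in mucous luminal cells in both.

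Xbp1 and Ddit3 had their highest levels in neutrophils in both libraries, among the clusters with at least 50 cells of a library. Xbp1 was at 449.6 [365 to 548] and 435 [373 to 505] CPM in neutrophils, above the 67.2 and 149 CPM of mucous luminal cells. Ddit3 was at 317 [246 to 401] and 135 [101 to 176] CPM in neutrophils and at 13.7 and 14.5 CPM in mucous luminal cells. The folding genes varied in neutrophils. Hsp90b1 was at 119 and 133 CPM and Calr at 147 and 115 CPM, whereas Hspa5 was at 642 and 373 CPM and P4hb at 541 [448 to 648] and 213 [169.8 to 263] CPM. The control P4hb level in neutrophils was above the 324 CPM of mucous luminal cells. The 10 immediate early and dissociation genes were also higher in immune cells, at 2129 CPM against 357 CPM in progesterone mucous luminal cells, all 10 at least 2-fold, and their part in the Ddit3 level was not tested.

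Ern2 had no UMI in control immune cells, where mucous luminal cells had 58. Set against a floor of 3 counts over the control immune cells it was at least 14.3-fold higher in mucous luminal cells. In the progesterone library it was 42.8-fold [18.3 to 132] higher, with 5 UMIs in all immune cells. Sec11c was 2.18-fold [1.67 to 2.86] and 4.15-fold [3.48 to 4.98] higher than in immune cells, and Kdelr2 2.26-fold [1.33 to 4.02] and 3.89-fold [2.95 to 5.24]. These 3 genes, with Spcs2 and Ssr2, were at least 2-fold higher than in immune cells in both libraries.

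Among the 13 clusters with at least 50 progesterone cells, cluster 1 had the highest level of 30 of the 35 members. The exceptions were Ern1 and Ern2, highest in cluster 21, and Xbp1, Ddit3 and Selenok, highest in neutrophils. In the control library, with 14 such clusters, cluster 12 was highest for 13 members, macrophages and dendritic cells for 8, neutrophils for 6, fibroblasts (cluster 17) for 6 and clusters 7 and 8 for 1 each. No like count was made over all genes in either library, so these counts have no background share beside them. The 2 main mucous clusters of the progesterone library differed. The members' sum was 12720.1 [12608 to 12833] CPM in cluster 1 and 7861 [7776 to 7946] CPM in cluster 21. Muc5b was at 11847 CPM in cluster 1 and 5921 CPM in cluster 21, and Clca1 at 512 and 10424 CPM. Calr was at 1079.5 against 605 CPM, Ssr4 at 1541 against 634 CPM and Ern2 at 131 against 161 CPM. Ern2 was thus the higher in cluster 21, where most folding genes were the lower. Cluster 23, 39 progesterone cells led by Prap1 and Serpina1e with 456 CPM of Muc5b, had a sum of 7508 CPM.

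Within mucous luminal cells the members were higher where Muc5b was higher. Cells were ranked by the Muc5b share of their UMIs, and Muc5b was left out of the totals so that it could not lower the other genes by itself. In the progesterone library the sum was 6625 [6434 to 6821] CPM in 155 cells with no Muc5b UMI. From the lowest to the highest quartile group of the cells with one it was 7461 [7338 to 7586], 9428 [9289 to 9568], 11339 [11195 to 11485] and 13164 [13005 to 13326] CPM. The intervals of these 5 groups did not overlap. The cytosolic and mitochondrial chaperones were lower in each further group, from 7885 to 4869 CPM, and the mitochondrial share of UMIs was 7.09% in the first and 8.28% in the last group.

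Split at the median Muc5b share, the upper 857 progesterone cells had 1.52-fold [1.49 to 1.54] the level of the lower 856. Of the 35 members 34 lay above 1, and only Hyou1 and Tmed3 were at least 2-fold higher (3.69% of 10851 genes were). The median log2 ratio was 0.58 over the members and 0.01 over all genes. Hyou1 was at 18.3 CPM in the lower and 39.7 CPM in the upper group, 2.17-fold [1.64 to 2.88]. Tmed3 was at 254 and 528 CPM, 2.07-fold [1.93 to 2.23]. Next came Ssr4 (1.84-fold [1.76 to 1.92]), Sdf2l1 (1.81-fold [1.398 to 2.37]) and Calr (1.79-fold [1.70 to 1.88]). Ddit3 was the 1 member below 1, at 0.883-fold [0.61 to 1.28], an interval that includes 1, and Canx was at 1.13-fold [1.04 to 1.23]. Split within cluster 1 or within cluster 21 alone, 0 members were at least 2-fold higher, with log2 ratios of the sum of 0.27 and 0.33. The difference was thus spread over most members at small ratios.

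By role, export and retrieval had the largest ratio of the upper over the lower cells, 1.94-fold [1.82 to 2.07], and degradation the smallest, 1.37-fold [1.27 to 1.48]. Of the further lists, oxidative folding had 3 of 14 genes at least 2-fold higher, led by Agr2 (3.70-fold [3.61 to 3.79]), and COPII export had 1 of 25, Sec24d (2.93-fold [2.13 to 4.10]). None of the 12 oligosaccharyltransferase genes and none of the 18 of ER degradation was. Of all 10851 genes tested 3.69% were, so the counts of these last 3 lists lie near the background.

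The same order held inside both main clusters. In cluster 1 the quartile groups of Muc5b ran from 10522 to 14097 CPM, and in cluster 21 from 6898 to 10081 CPM. The highest quartile group of cluster 21 still lay under the lowest of cluster 1, although its Muc5b level was higher (15729 against 2818 CPM). Muc5b level and cluster were therefore both tied to the members' level. The deepest tertile of progesterone mucous luminal cells had a sum of 11422 CPM and the shallowest 7277 CPM, while squamous cells showed 3511 and 3317 CPM.

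The order was the same among cells thinned to 2000 UMIs each. In progesterone cells the sum was then 6389.7 [6093 to 6697] CPM with no Muc5b UMI, 7485 [7251 to 7726] with 1 to 4, 9266 [9097 to 9438] with 5 to 19 and 12259.6 [12037 to 12485] with 20 or more. In control cells these values were 6174 [5849 to 6513], 11331 [9967 to 12829], 14187 [12868 to 15606] and 18220.2 [16877 to 19642] CPM, over 109, 11, 15 and 19 cells.

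In the control library the relation was steeper, though few cells carried it. The 191 mucous luminal cells with no Muc5b UMI had a sum of 6279.9 [6074 to 6491] CPM, close to the matching progesterone cells. The 61 cells with a Muc5b UMI had 15090.4 CPM, 2.40-fold [2.29 to 2.52] the level of those without. At least 2-fold higher were 23 of the 32 members tested, with 8.38% of 4868 genes as background and 3 members under 20 UMIs. The median log2 ratio was 1.11 over members and -0.07 over all genes. Cells with no Muc5b UMI were shallower, with a median of 2129 against 4348 UMIs. Quartile groups of the 61 cells ran 9896, 13651, 18249 and 19232 CPM over 15 or 16 cells each.

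Single members showed it as well. Calr was at 535 CPM in control cells without and 1952 CPM in those with a Muc5b UMI, 3.65-fold [3.15 to 4.24]. Hspa5 was at 400.00 and 1235 CPM, 3.09-fold [2.59 to 3.69], and Ern2 at 17.9 and 197 CPM, 10.98-fold [5.48 to 24.3]. Canx was at 0.937-fold [0.68 to 1.28] and Atf6 at 1.24-fold [0.579 to 2.53]. The intervals of Canx and Atf6 include 1, so no difference with Muc5b was detectable for them at this depth.

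**Figure D3:**
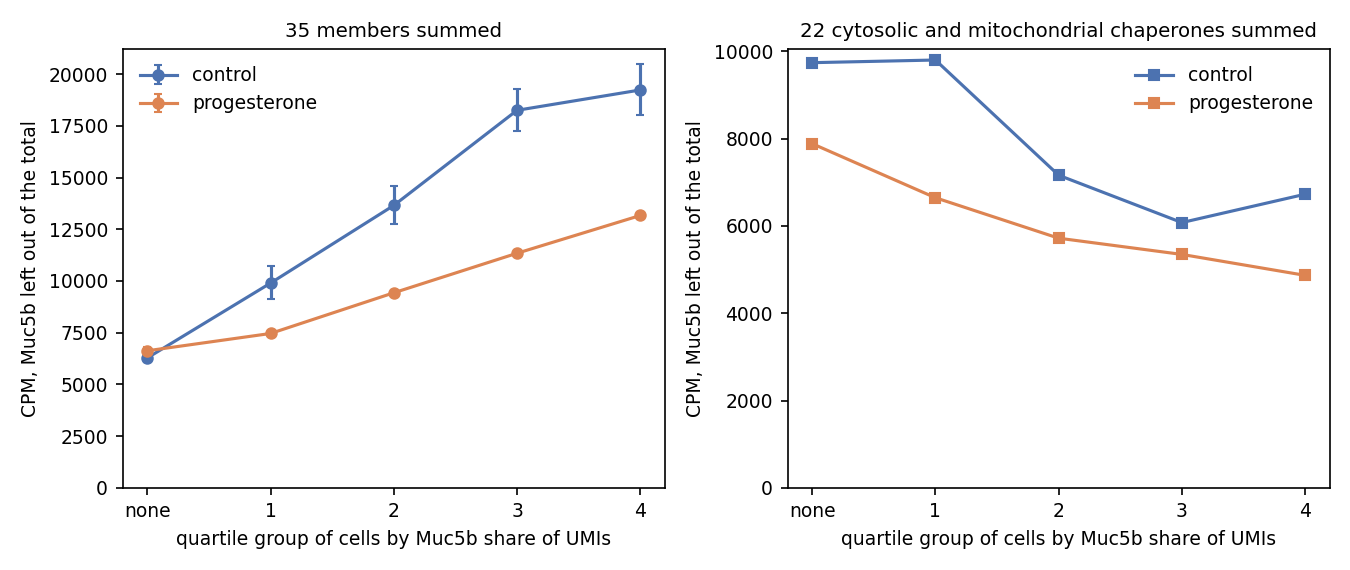
Summed CPM of the 35 members (left) and of 22 cytosolic and mitochondrial chaperones (right) in mucous luminal cells without Muc5b and in quartile groups of the cells with Muc5b, for the control (blue) and progesterone (orange) library, with Muc5b left out of the totals and 95% counting intervals on the left. The members go from 6625 to 13164 CPM in the progesterone library and from 6279.9 to 19232 CPM in the control, while the other chaperones are lowest in the highest quartile group of the progesterone library.

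**Figure D4:**
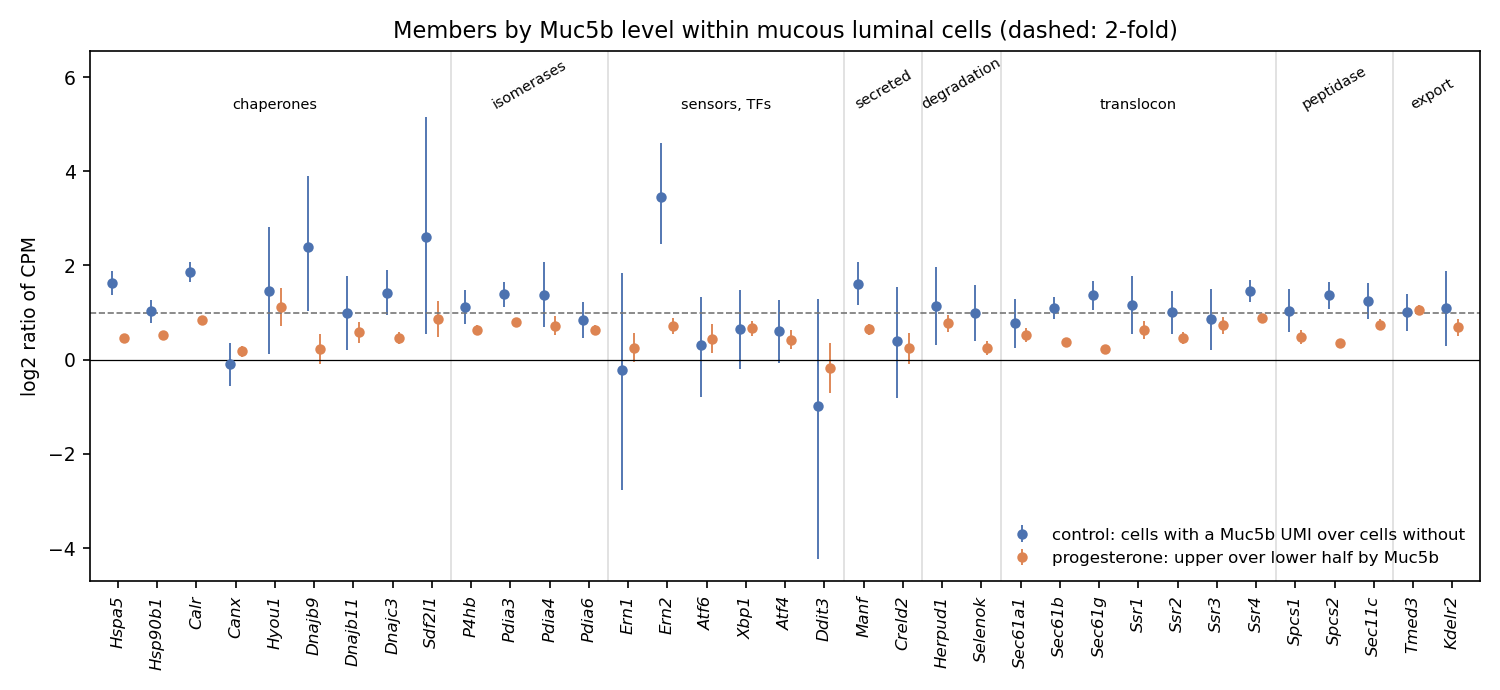
Log2 ratio of CPM for each member by Muc5b level within mucous luminal cells: control cells with a Muc5b UMI over cells without (blue), and progesterone cells above over those below the median Muc5b share (orange), with 95% counting intervals; the dashed line marks 2-fold. Most members lie above 0, Canx lies close to 0 in both, and Ern2 is the highest in the control cells.

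Muc5b marked a similar difference among suprabasal squamous cells of the progesterone library, of which cluster 0, led by Krt10, Spink5 and Agr2, made up 1078 of 1097. The 710 cells with no Muc5b UMI had a sum of 3651 [3597 to 3706] CPM. The highest Muc5b quartile group, 96 cells with 5805 CPM of Muc5b, had 10443 [10132 to 10761] CPM, as much as mucous luminal cells. These cells were shallower than those with none, with medians of 3919 and 6254 UMIs. Their luminal keratins Krt8 and Krt18 summed to 2793 against 1182 CPM in cells with no Muc5b UMI. The next lower quartile group had 2639 CPM of these keratins but a members' sum of 5831 [5615 to 6054] CPM. The part that droplets with 2 cells had in the higher level was not tested beyond the removal of called doublets.

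Between the libraries, the members' sum in all mucous luminal cells differed little, 1.12-fold [1.09 to 1.15] higher with progesterone. Of 35 members 3 were at least 2-fold higher (13.9% of 11021 genes were) and none was at least 2-fold lower. Medians of log2 ratios were 0.17 over the members and 0.07 over all genes. The 3 were Xbp1, at 2.21-fold [1.68 to 2.96], Ern1, at 3.03-fold [1.68 to 6.13], and Sdf2l1, at 2.27-fold [1.25 to 4.61]. Herpud1 (1.90-fold [1.44 to 2.56]), Ern2 (1.93-fold [1.48 to 2.56]) and Kdelr2 (1.83-fold [1.401 to 2.42]) came next, and Calr (0.846-fold [0.785 to 0.912]) and Hspa5 (0.879-fold [0.803 to 0.964]) lay below 1. Summed by role, chaperones were at 0.956-fold [0.916 to 0.997] and signal peptidase at 0.998-fold [0.928 to 1.07], while degradation was at 1.61-fold [1.37 to 1.90], export and retrieval at 1.54-fold [1.36 to 1.75] and sensors and transcription factors at 1.51-fold [1.33 to 1.72]. The summed ratios were thus largest for degradation, export and regulator genes, though the share of members at least 2-fold higher lay under that of all genes. Cytosolic and mitochondrial chaperones were at 0.638-fold [0.623 to 0.654]. The direction of the sum changed with finer clustering, to a log2 ratio of -0.09 at Leiden resolution 2. In this comparison 24.2% of control against 91.0% of progesterone cells had a Muc5b UMI. Among cells between 5000 and 15000 CPM of Muc5b, Herpud1 was at 158 [91.9 to 252] CPM in control and 145 [132 to 159] CPM in progesterone cells. Selenok was at 241 [158 to 353] and 207 [192 to 224] CPM there, so the intervals of both degradation genes overlap. The part of the Muc5b shares in the role ratios was not tested.

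Above 1000 CPM of Muc5b the control cells had more of the members than progesterone cells at like levels. A Muc5b UMI also occurred in 20.4% of progesterone and 0.522% of control immune cells, so having 1 may not select like cells in the 2 libraries. Among mucous luminal cells with a Muc5b UMI, a comparison chosen after seeing the data, 61 control cells had 15090.4 CPM and 1558 progesterone cells 10407 CPM, 1.45-fold [1.402 to 1.499] higher in the control. With fixed bounds, cells at 1000 to 5000 CPM of Muc5b had 14116 [13163 to 15119] CPM in the control (15 cells) and 8409 [8293 to 8526] CPM in the progesterone library (510 cells). Between 5000 and 15000 CPM the values were 16547 [15788 to 17333] in 24 and 11377 [11259 to 11496] CPM in 597 cells. Above 15000 CPM they were 20449 [19014 to 21965] in 12 and 13251 [13069 to 13434] CPM in 303 cells. Above 0 and up to 1000 CPM they were 7908 [7075 to 8812] in 10 and 6824 [6636 to 7016] CPM in 148 cells. The bands also set different clusters side by side, mostly cluster 12 in the control and clusters 1 and 21 with progesterone. In cluster 1 the progesterone quartile group at 13384 CPM of Muc5b had 13898 CPM of the members. In cluster 21 the group at 15729 CPM of Muc5b had 10081 CPM. The part of the clusters in the difference was not tested. The medians over single cells between 5000 and 15000 CPM of Muc5b were 16634 CPM, with quartiles of 13177 and 18794, and 9909 CPM, with 7068 and 13447. From which of the 9 pooled mice these few control cells came is not known from the labels, and the part of single animals was not tested.

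The members did not share this difference evenly. Over all cells with a Muc5b UMI, Calr (2.29-fold [2.08 to 2.51]) and Hspa5 (2.08-fold [1.85 to 2.34]) were at least 2-fold higher in the control (7.17% of 10702 genes were). Ern1 was at least 2-fold lower there (16.0% of genes were), with an inverse ratio of 3.49-fold [1.19 to 17.0] from 3 control UMIs. In the band from 5000 to 15000 CPM of Muc5b, Calr was at 2235 [1962 to 2536] CPM in control and 973 [939 to 1008] CPM in progesterone cells. Hspa5 was at 1243 [1041 to 1472] and 624 [597 to 652] CPM. Kdelr2, at 158 [91.9 to 252] and 144 [131 to 158] CPM, and Xbp1, at 121 [64.2 to 206] and 164 [151 to 179] CPM, had intervals that overlap. The higher control level was not limited to chaperones. Sec61b was at 1428 [1212 to 1673] and 910.3 [877 to 944] CPM, Spcs2 at 918 [746 to 1118] and 506 [481 to 532] CPM and P4hb at 566 [433 to 727] and 382 [361 to 404] CPM, all with intervals that do not overlap.

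Squamous and immune cells, also compared between the libraries after seeing the data, had more of the members in the control. In squamous cells the sum was 1.26-fold [1.25 to 1.28] higher. None of the 35 members was at least 2-fold higher (6.86% of 12602 genes were), and Ern1 and Ern2 were at least 2-fold lower (13.7% of genes were). Medians were 0.23 over the members and -0.16 over all genes, and 22 members lay above 1 and 13 below (20 and 15 without the abundant genes in the total). Calr (1.90-fold [1.83 to 1.98]), Hspa5 (1.82-fold [1.74 to 1.90]) and Creld2 (1.82-fold [1.54 to 2.15]) had the highest control ratios. Dnajb9 (0.509-fold [0.388 to 0.659]) and Herpud1 (0.568-fold [0.498 to 0.646]) were among the lowest. By role, chaperones were at 1.51-fold [1.48 to 1.54] and isomerases at 1.34-fold [1.30 to 1.38], whereas export and retrieval was at 0.856-fold [0.804 to 0.911] and degradation at 0.672-fold [0.624 to 0.722]. Cytosolic and mitochondrial chaperones also had a higher sum in control squamous cells, 1.57-fold [1.56 to 1.58], at 14164 against 9035 CPM. Hspb1 alone was at 3141 and 839 CPM of these sums. The summed ER chaperones thus had the same direction as the summed chaperones of other compartments there. Basal cells stood at 4416 against 3092 CPM and suprabasal cells at 4163 and 4233 CPM. Suprabasal cells were mostly of different clusters in the 2 libraries. Cluster 11 held 387 of 468 control cells and cluster 0 held 1078 of 1097 progesterone cells. In cluster 11 the sum was 4195 CPM in the control and 3489 [3208 to 3788] CPM in 19 progesterone cells. In cluster 0 it was 3851 [3643 to 4069] CPM in 81 control cells and 4251 CPM in the progesterone library. Progesterone suprabasal cells with no Muc5b UMI stood at 3651 [3597 to 3706] CPM.

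In immune cells the sum was 1.61-fold [1.55 to 1.68] higher in the control. Of 34 members tested 6 were at least 2-fold higher (9.7% of 8198 genes were) and 31 lay above 1 (28 without the abundant genes in the total), with medians of 0.61 over the members and 0.12 over all genes. P4hb (3.16-fold [2.60 to 3.85]), Ddit3 (2.97-fold [2.17 to 4.08]) and Hspa5 (2.55-fold [2.25 to 2.89]) were among the 6, with Atf6, Creld2 and Hyou1, although Hyou1 had a log2 ratio of -0.12 in neutrophils alone. The dissociation genes were higher in the control too, 1.82-fold [1.72 to 1.92], and cytosolic and mitochondrial chaperones were at 0.929-fold [0.893 to 0.966]. The mix of immune cells differed, as neutrophils held 217977 of 595688 immune UMIs in the control and 399783 of 1535780 in the progesterone library. In neutrophils alone Ddit3 was at 317 and 135 CPM and the dissociation genes at 9065 and 6854 CPM. The parts of this mix and of dissociation in the difference were not tested. Macrophages and dendritic cells showed the larger difference, from 7636 to 4096 CPM. In that class the 8 basal squamous markers summed to 1555 CPM in the control and 8161 CPM in the progesterone library, and their part in the difference was not tested. Hspa5 there was at 967 [862 to 1081] and 307 [275 to 342] CPM, and in neutrophils at 642 [540.3 to 758] and 373 [315 to 438] CPM. The BiP gene was therefore higher in the control in squamous cells, in both kinds of immune cell and in mucous luminal cells with Muc5b.

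**Figure D5:**
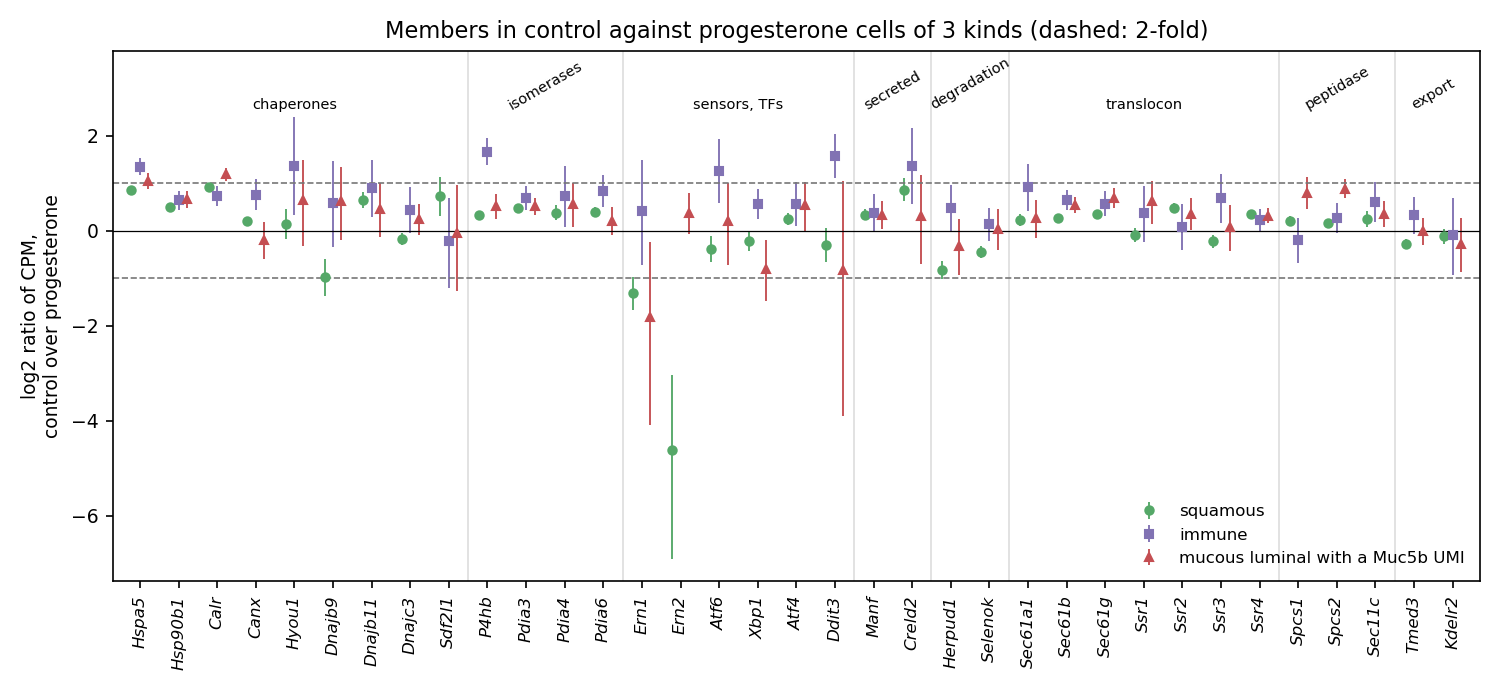
Log2 ratio of CPM, control over progesterone, for each member in squamous cells (green circles), immune cells (purple squares) and mucous luminal cells with a Muc5b UMI (red triangles), with 95% counting intervals and dashed lines at 2-fold; Ern2 in immune cells, with no control UMI, has no point. Hspa5, Hsp90b1, Calr and the translocon genes Sec61b and Sec61g lie above 0 in all 3, and Ern1 lies below 0 in squamous and mucous luminal cells.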

How the data were processed

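Single-cell RNA libraries (3′) of 2 pooled groups were used as deposited counts of UMIs per gene and barcode. Cell Ranger 3.0.2 and mm10 are named in the submitters' processing notes, with no role given, and the annotation is not given in the sources used here. Barcodes with fewer than 200 genes or over 20% mitochondrial UMIs were dropped, and doublets were called per library with Scrublet (scanpy 1.11.5) at 0.8% per 1000 cells and left out. Both libraries were clustered together (2000 variable genes, 30 principal components, 15 neighbours, Leiden resolution 1) without the members, the other listed genes, Muc5b and mitochondrial genes. Clusters were named from fixed markers, with thresholds set after the clusters were seen. Sums of UMIs over the cells of a class in a library were divided by that class's total to give CPM, with exact Poisson intervals, exact Clopper-Pearson intervals for shares and exact conditional binomial intervals for ratios (95%, scipy 1.17.1). A gene was called at a 2-fold ratio with at least 20 UMIs, and a count of 0 was set at a floor of 3 counts. Intervals cover counting error only. The calling was tested on simulated data. All members were accounted for and may be named. Of the further lists at most 2 called genes in each direction were named, except Sec11a and Atf3, chosen after their values were seen. The named genes were those whose interval bound nearest to 1 lay farthest from 1, which need not be those with the largest ratios. The members and lists were chosen with earlier results of these data known. Promoter windows are RefSeq's (GRCm38.p6). The alternatives tried are other clustering, cell filters, denominators, depths and class rules, whose effect is given at the end.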

Additional observations from a re-analysis of the deposited data

How the results depend on the processing

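Every value below is from 1 library per group, so leaving out a replicate was not possible, and the depth limits only the counting intervals. No paired analysis was possible because each group is 1 library. Classes rest on marker-based names whose thresholds were set after the clusters were seen, and mucous luminal cells of the 2 libraries fall into different clusters. The summed level kept its direction under every setting run for 5 of the 6 main comparisons; the exception was progesterone over control mucous luminal cells, which turned at a resolution of 2. The settings with cluster 7, cluster 8, cluster 23, macrophages and dendritic cells alone, and Muc5b within a cluster were chosen after seeing the data. The keratin gate takes luminal cells by Krt8 and Krt18, squamous cells by Krt5, Krt14, Krt6a and Krt13 and immune cells by Ptprc. For mucous luminal over squamous cells, progesterone, the log2 ratio of the sum was 1.55, and 1.58 at a Leiden resolution of 0.5, 1.67 at a resolution of 2, 1.47 with called doublets kept, 1.67 under the stricter cell filter, 1.65 with the libraries clustered apart, 1.61 with all genes in the clustering, 1.20 without abundant genes in the total, 1.44 as a mean of cells, 1.499 thinned to 2000 UMIs, 1.52 without the 3 most abundant members, 1.46 as the median over members and 1.57 without cluster 23. For mucous luminal over squamous cells, control, the log2 ratio of the sum was 1.05, and 1.33 at a resolution of 2, 1.08 with called doublets kept, 1.14 under the stricter cell filter, 0.77 with the libraries clustered apart, 1.12 with all genes in the clustering, 0.85 with the keratin gate, 0.80 without abundant genes in the total, 1.00 as a mean of cells, 1.01 as the median over members, 0.99 with cluster 7 as squamous and 0.80 with cluster 8 as mucous luminal. Its count of members at least 2-fold higher, 19, was 9 with the libraries clustered apart, 11 with the keratin gate, 8 without abundant genes in the total, 33 at a threshold of 1.5-fold and 11 with cluster 8 as mucous luminal. For mucous luminal over immune cells, progesterone, the log2 ratio of the sum was 1.30, and 1.12 at a Leiden resolution of 0.5, 1.01 at a resolution of 2, 1.23 with called doublets kept, 0.58 under the stricter cell filter, 0.95 with the libraries clustered apart, 1.24 with all genes in the clustering, 0.61 with the keratin gate, 1.22 as a mean of cells, 1.08 thinned to 2000 UMIs, 1.23 without the 3 most abundant members and 1.35 as the median over members. Its count of members at least 2-fold higher, 24, was 11 under the stricter cell filter and 11 with the keratin gate. For mucous luminal over immune cells, control, the log2 ratio of the sum was 0.44, and 0.26 at a Leiden resolution of 0.5, 0.65 at a resolution of 2, 0.18 under the stricter cell filter, 0.22 with the libraries clustered apart, 0.62 without abundant genes in the total, 0.51 as a mean of cells, 0.13 thinned to 2000 UMIs, 0.32 without the 3 most abundant members, 0.19 with cluster 8 as mucous luminal and 0.23 without neutrophils and lymphoid cells. Its count of members at least 2-fold higher, 6, was 3 at a Leiden resolution of 0.5, 11 at a resolution of 2, 2 with the libraries clustered apart, 12 without abundant genes in the total, 14 as a mean of cells, 3 thinned to 2000 UMIs, 15 at a threshold of 1.5-fold and 1 with cluster 8 as mucous luminal. For progesterone over control mucous luminal cells, the log2 ratio of the sum was 0.16, and -0.0874 at a resolution of 2, 0.0991 with called doublets kept, 0.13 under the stricter cell filter, 0.39 with the libraries clustered apart, 0.0899 with all genes in the clustering, 0.22 with the keratin gate, 0.26 without abundant genes in the total, 0.21 as a mean of cells, 0.13 thinned to 2000 UMIs and 0.40 with cluster 8 as mucous luminal. Its count of members at least 2-fold higher, 3, was 5 without abundant genes in the total, 6 at a threshold of 1.5-fold and 5 with cluster 8 as mucous luminal. For Muc5b-high over Muc5b-low cells, the log2 ratio of the sum was 0.60, and 0.63 at a resolution of 2, 0.70 with called doublets kept, 0.71 under the stricter cell filter, 0.67 with the libraries clustered apart, 0.68 with all genes in the clustering, 0.64 with the keratin gate, 0.54 without abundant genes in the total, 0.62 as a mean of cells, 0.57 thinned to 2000 UMIs, 0.56 without the 3 most abundant members, 0.58 as the median over members, 0.90 for the highest against the lowest quartile group, 0.52 split within deciles of depth, 0.27 within cluster 1, 0.33 within cluster 21 and 0.58 without cluster 23. Its count of members at least 2-fold higher, 2, was 4 with called doublets kept, 4 under the stricter cell filter, 1 without abundant genes in the total, 17 at a threshold of 1.5-fold, 13 for the highest against the lowest quartile group, 0 split within deciles of depth, 0 within cluster 1, 0 within cluster 21 and 1 without cluster 23. Of 4098 values of single members under an alternative, 2919 moved by no more than the counting interval, 1173 moved further and 6 changed direction. These were Dnajb11 (-0.20) and Hyou1 (-0.10) over immune cells in the progesterone library under the stricter filter, Dnajb11 (-0.087) there with the keratin gate, Xbp1 (-0.34) over squamous cells in the control with the keratin gate, Herpud1 (-0.86) by Muc5b in control cells with the libraries clustered apart, and Hyou1 (-0.12) between the libraries in neutrophils. The cause was not tested. Under 50 cells were left for the stricter filter and thinning in control cells with a Muc5b UMI, and for the keratin gate in control immune cells and control cells with a Muc5b UMI, so these were not run.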
